A study of Mus musculus with 8 samples.

Results

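The S100 genes described here are 10 members of the S100 calcium-binding protein family, namely S100a1, S100a3, S100a4, S100a6, S100a8, S100a9, S100a10, S100a11, S100a13 and S100a16. They were taken by gene symbol from the 55471 genes of the count table of SV-LECs, a mouse lymphatic endothelial cell line. The list of symbols was drawn up with earlier results of these data known. Each symbol occurred in the table, and 7 of the 10 members had enough reads to be tested.

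SV-LECs are immortalized with SV40, were isolated from mesenteric adventitial tissue according to the labels, and are a single line, grown in medium with serum. Control cells received no cytokine, and treated cells received TGFβ1 at 10 ng/ml for 72 h, with 4 poly(A) RNA libraries in each of the 2 groups, 8 in all. The study describes the samples within a group as technical replicates, and p-values therefore cover technical spread between libraries of 1 line, not between separate isolates. The libraries held between 18952504 and 26386941 gene counts, and 3 counts in a library corresponded to 0.113 to 0.162 CPM (counts scaled to a common library size after TMM normalization).

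S100 proteins are small proteins with a pair of EF-hands, helix-loop-helix motifs that bind calcium. Most form dimers, and calcium binding exposes a surface through which they bind annexins, myosin, p53 and other targets inside the cell. Several are also released and act on receptors such as RAGE and TLR4, and in endothelium S100A10 is known as the partner of annexin A2 in the surface complex that activates plasminogen.

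In GENCODE M21 (GRCm38), 8 of the 10 members lay in a block of 184688 bases on chromosome 3, chr3:90511034-90695721. S100a11 (chr3:93520488-93526287, plus strand) and S100a10 (chr3:93555080-93564643, plus strand) lay next to each other on the same chromosome, 2824767 bases beyond the end of S100a9. S100a1 (chr3:90511034-90514392, minus strand) and S100a13 (chr3:90514435-90524581, plus strand) were a head-to-head pair whose annotated starts were 43 bases apart and whose exons did not overlap. These neighbours moved in opposite directions, as described below.

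RefSeq promoter windows of 300 bases, from 250 bases before to 50 after a start, are shown for the most reduced member, S100a4, for S100a11, which had the smallest FDR among the members, and for the divergent pair. The windows are given on the plus strand of GRCm38.p6. In the window of S100a13 the capitals mark the 204 bases that it shares with the window of S100a1, which reads the opposite strand. The RefSeq starts of this pair lie 105 bases apart, where those of GENCODE M21 lie 43 bases apart. In the windows of S100a4 and S100a11 the capitals mark matches to the motifs searched.
S100a13 chr3:90514185-90514484: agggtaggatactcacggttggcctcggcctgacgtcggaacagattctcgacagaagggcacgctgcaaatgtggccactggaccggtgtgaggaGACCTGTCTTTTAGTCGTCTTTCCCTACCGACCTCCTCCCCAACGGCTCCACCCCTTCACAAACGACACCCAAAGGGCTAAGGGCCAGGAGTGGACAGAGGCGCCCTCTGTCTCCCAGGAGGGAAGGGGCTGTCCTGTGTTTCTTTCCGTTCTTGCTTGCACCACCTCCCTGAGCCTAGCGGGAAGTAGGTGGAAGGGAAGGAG
S100a4 chr3:90603520-90603819: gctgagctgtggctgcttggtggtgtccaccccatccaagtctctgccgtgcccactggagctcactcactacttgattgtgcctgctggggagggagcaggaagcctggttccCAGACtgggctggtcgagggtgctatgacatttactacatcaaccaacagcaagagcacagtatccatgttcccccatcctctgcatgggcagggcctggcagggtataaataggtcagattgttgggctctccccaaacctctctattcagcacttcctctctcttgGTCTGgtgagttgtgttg
S100a11 chr3:93520246-93520545: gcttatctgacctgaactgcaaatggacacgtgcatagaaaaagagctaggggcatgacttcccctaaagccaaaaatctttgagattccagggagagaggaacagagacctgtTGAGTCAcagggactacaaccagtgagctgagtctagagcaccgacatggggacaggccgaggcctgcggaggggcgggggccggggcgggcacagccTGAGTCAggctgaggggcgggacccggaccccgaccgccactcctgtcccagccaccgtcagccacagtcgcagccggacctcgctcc

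The motifs were CAGAC, the core of the SMAD-binding element, TGANTCA, the AP-1 site, which is its own reverse complement, and GGAATG, the TEAD site, each searched on both strands. No motif is contained in another. CAGAC was found in 49.6% of all 32851 mouse promoter windows, TGANTCA in 7.81% and GGAATG in 14.7%. RefSeq windows were matched for 9 members, 13 windows in all, and S100a10 had no entry. A member with several windows was counted if any of them matched, so counts of members do not compare with these shares of windows. CAGAC was found in windows of 5 members, S100a3, S100a4, S100a6, S100a8 and S100a16, with 2 matches each in the window of S100a4, that of S100a8 and 1 of the windows of S100a16. TGANTCA was found in 2 members, with 2 matches in the window of S100a11 and 1 in a window of S100a16, and GGAATG in 1 member, S100a3. The windows of S100a1 and S100a13 held none of these letters, which says nothing about binding of the factors elsewhere.

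The cells responded to TGFβ1 at known target genes. Acta2, smooth muscle actin, rose from 264 ± 9.92 to 981 ± 38.4 CPM (SD, n = 4), by 1.89 on the log2 scale, and Ccn2 and Smad7 rose by 2.06 and 0.89 on the same scale. Several markers that define lymphatic endothelium were absent. Of 10 lymphatic endothelial markers, Prox1, Lyve1, Cdh5, Emcn and Ccl21a had at most 3 counts in any library, while Pdpn, Flt4 and Kdr were measured at 342, 21.6 and 11.6 CPM in untreated and 313, 29.3 and 22.1 CPM in treated cells. In the edgeR test Flt4 and Kdr rose 1.35-fold and 1.90-fold and Pdpn fell by 0.13 on the log2 scale. Tek, at 0.659 CPM in untreated and 0.569 CPM in treated cells, was not called (edgeR FDR 0.608). Pecam1 had 1 to 3 counts in untreated and 3 to 5 in treated libraries and was not tested. The summed CPM of the 10 markers, most of it Pdpn, ranged from 357 to 394 in untreated and from 360 to 370 in treated libraries.

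All 7 tested members differed between the groups at an FDR under 0.05 in the edgeR likelihood ratio test, 3 higher and 4 lower with TGFβ1. S100a10, S100a11 and S100a13 were higher, and S100a1, S100a4, S100a6 and S100a16 were lower. In these libraries 37.6% of the 13818 genes tested were called higher and 38.0% lower, so a call by itself sets no member apart from other genes. The median size of the change, without its sign, was 0.40 on the log2 scale over the 7 members and 0.39 over all genes tested. The CPM values of 6 of the 7 did not overlap between the groups, where 69.8% of all genes tested did not. In RNA from a whole culture, a change in the share of cells that express a gene and a change in RNA per cell cannot be told apart.

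**Figure D1:**
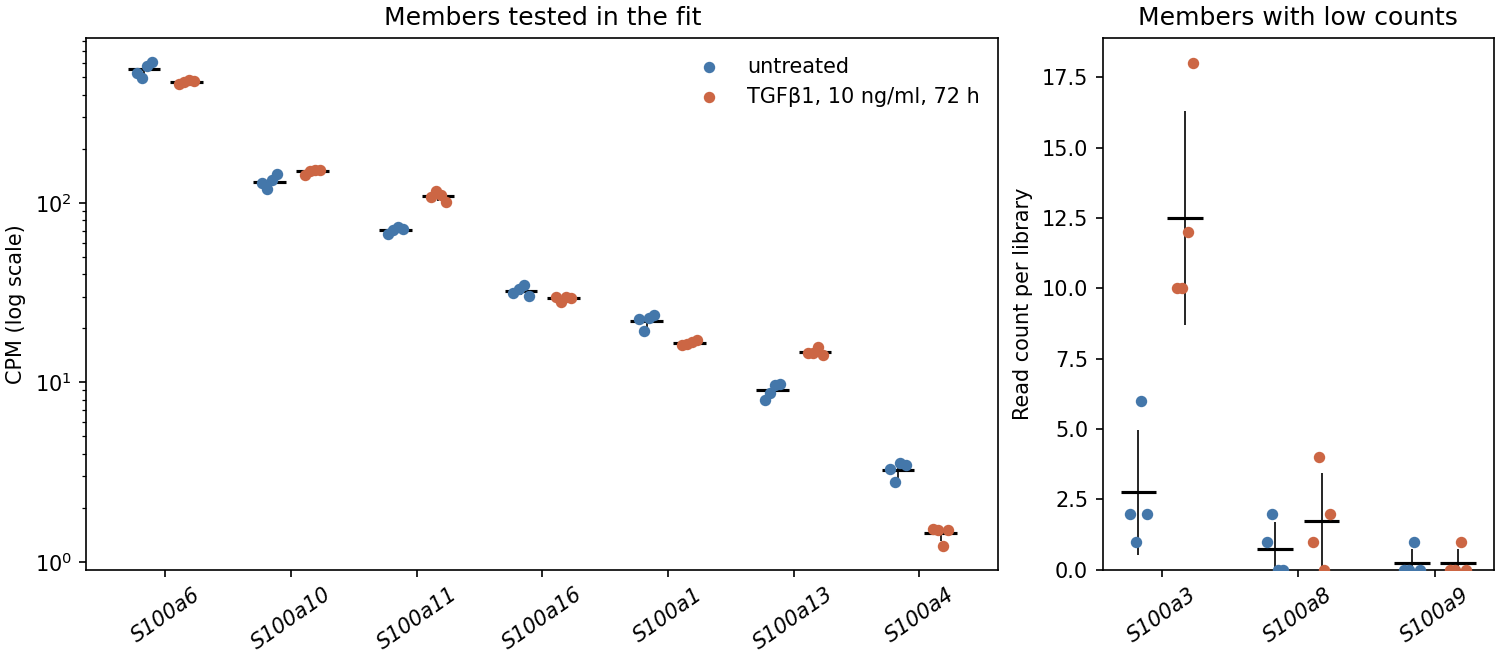
Values of the S100 genes in each library, in CPM on a log axis for the 7 tested members (left) and as read counts for the 3 members with low counts (right). Points are libraries, horizontal lines the group means and vertical lines the SD (n = 4 per group). S100a6 lies highest in both groups, S100a11 and S100a13 are higher in all 4 treated libraries, S100a4 and S100a1 are lower in all 4, and S100a8 and S100a9 stay at 0 to 4 counts.

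S100a10 and S100a11 are partners of annexins. S100a11 binds annexin A1 and is involved in membrane repair and growth control. Its CPM was 67.0, 70.1, 73.7 and 71.2 in untreated libraries 1 to 4 and 107, 116, 110 and 101 in treated libraries 1 to 4. Each treated library lay above each untreated library, by at least 27.4 CPM. The increase was 0.62 ± 0.0533 on the log2 scale (SE), or 1.54-fold, with an FDR of 8.56e-31 in edgeR's likelihood ratio test. S100a11 shared 37.8% of the 75-base stretches of its transcript with the gene Gm12854 and 19.0% with Gm7665, and how reads that map to several places were counted is not given in the sources used here, so its level is uncertain to that extent.

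S100a10, also called p11, differs from the other members in that its EF-hands do not bind calcium, and it holds annexin A2 in a stable heterotetramer. S100a10 was measured at 128, 119, 133 and 144 CPM in untreated and at 143, 151, 152 and 153 CPM in treated libraries. The highest untreated library, replicate 4, lay just above the lowest treated library, replicate 1, so the groups overlapped. The increase of 0.19 ± 0.0552 on the log2 scale, 1.14-fold, had an FDR of 0.000693 in edgeR's likelihood ratio test. With scaling to total counts alone it was 0.13 with an edgeR FDR of 0.0322.

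S100a6, or calcyclin, binds the ubiquitin ligase adaptor CACYBP and annexins, and is commonly high in proliferating cells and fibroblasts. S100a6 reads were the most abundant of the family, at 528, 495, 579 and 608 CPM in untreated and 457, 469, 484 and 477 CPM in treated libraries. Its mean CPM exceeded that of 98.6% of the genes tested. Each treated library was below each untreated library, and the untreated libraries were more spread, with an SD of 50.7 CPM against 11.7 CPM. S100a6 fell by 0.23 ± 0.0586 on the log2 scale, with an FDR of 0.000179 in edgeR's likelihood ratio test.

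S100a4, known as metastasin or fibroblast-specific protein 1, binds non-muscle myosin IIA and is widely used as a mesenchymal marker. It had the largest change of the tested members. S100a4 had 68, 74, 81 and 68 counts in untreated libraries and 28, 31, 25 and 39 counts in treated libraries, or 3.28, 2.78, 3.54 and 3.45 CPM against 1.51, 1.51, 1.23 and 1.51 CPM. The groups did not overlap. S100a4 fell by 1.16 ± 0.167 on the log2 scale, with a 95% interval from -1.49 to -0.84, a fold of 0.447 and an FDR of 1.45e-12 in edgeR's likelihood ratio test. A larger change in either direction was found for 13.8% of all genes tested.

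S100a4 was nevertheless weakly expressed. Its mean untreated CPM of 3.26 rested on at most 81 counts per library. Of its exon bases, 51.7%, or 302, are annotated also to the overlapping gene Gm42674 on the same strand, which had 0 counts in all 8 libraries. How reads that fall on both genes were counted is not given in the sources used here. Over the 282 other exon bases, its level was 11.6 ± 1.20 RPKM in untreated and 5.11 ± 0.501 RPKM in treated cells (CPM divided by exon length in kilobases, SD, n = 4), if all its reads came from these bases. Of all genes tested in edgeR, 37.6% were called higher and 38.0% lower with TGFβ1. Among the 8 fibroblast and mesenchymal markers, all were tested, 4 were higher and 3 lower in the same edgeR test. Their summed CPM ranged from 11565 to 14725 in untreated and from 13858 to 15403 in treated libraries, and their part in the change of S100a4 was not tested.

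S100a1 and S100a13, the head-to-head pair, moved apart. S100a1 is best known from heart muscle, where it acts on the calcium channels and pumps of the sarcoplasmic reticulum. Its CPM was 22.5, 19.2, 22.7 and 23.8 in untreated and 16.1, 16.4, 16.7 and 17.2 in treated libraries. All treated libraries lay below all untreated libraries, of which replicate 2 was the lowest. S100a1 fell by 0.40 ± 0.0776 on the log2 scale, a change of -24.4%, with an FDR of 3.99e-07 in edgeR's likelihood ratio test.

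S100a13 takes part in the release of FGF1 and interleukin 1α, which lack a signal peptide. S100a13 was measured at 8.00, 8.71, 9.69 and 9.84 CPM in untreated and 14.5, 14.6, 15.7 and 14.2 CPM in treated libraries. Each treated library lay above each untreated library, by at least 4.33 CPM. The increase of 0.70 ± 0.0887 on the log2 scale, 1.63-fold, had an FDR of 6.96e-15 in edgeR's likelihood ratio test. Fgf1 and Il1a, the genes of its cargo proteins, had too few reads to be tested.

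S100a16, a broadly expressed member linked to adipocyte and epithelial biology, changed least. Its CPM was 31.3, 33.3, 34.7 and 30.4 in untreated and 29.8, 28.1, 30.0 and 29.5 in treated libraries. The groups did not overlap, but the gap between them was 0.461 CPM. S100a16 fell by 0.15 ± 0.0592 on the log2 scale, with an FDR of 0.0175 in edgeR's likelihood ratio test. The call was lost without untreated replicate 2, untreated replicate 3 or treated replicate 2, where the log2 fold change was -0.14, -0.11 and -0.13, and the largest edgeR FDR of these was 0.0885.

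**Figure D2:**
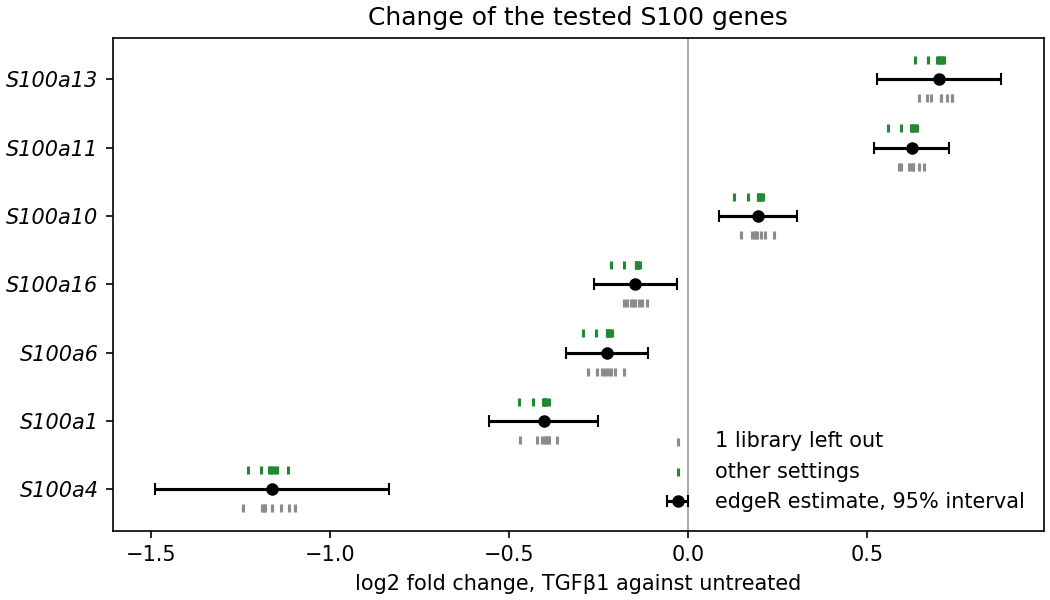
Log2 fold changes, TGFβ1 against untreated, of the 7 tested S100 genes. Black points and bars are the edgeR estimates with 95% intervals, green ticks other ways of scaling, filtering or testing, and grey ticks fits with 1 library left out. The estimates run from -1.16 for S100a4 to 0.70 for S100a13, and no tick lies on the other side of 0 from its estimate.

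S100a8 and S100a9 were at the limit of detection, and S100a3 was low. S100a3, a protein of the hair cuticle, had 2, 1, 6 and 2 counts in untreated and 10, 10, 12 and 18 counts in treated libraries. It did not pass the filter on low counts. The groups did not overlap, and the ratio of the mean CPM was 4.66. Without the filter on low counts the log2 fold change of S100a3 was 2.18, with an edgeR FDR of 4.64e-07 over 27709 genes. S100a3 has a long annotated exon length of 5660 bases, of which 2.54% overlap Gm42674 on the same strand.

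S100a8 and S100a9 form calprotectin, the main cytosolic protein of neutrophils, which sequesters zinc and manganese and acts as an alarm signal through TLR4 and RAGE. S100a8 had 1, 2, 0 and 0 counts in untreated and 1, 4, 0 and 2 in treated libraries. S100a9 had 0, 0, 1 and 0 counts in both groups. Calprotectin transcripts were thus not detectable above the floor of 3 counts in nearly all libraries, and no fold or ratio is given. Among 12 myeloid markers, Ptprc, Itgam, Ly6g, Ngp, Camp, Ltf and Elane had at most 3 counts in any library. The 3 that were tested, Csf1r, Cd14 and Cd68, rose in the edgeR test, where 37.6% of all genes tested were called higher. Csf1r, with 3 to 10 counts in untreated and 19 to 33 in treated libraries, passed the filter on low counts only through the treated group. Lyz2 had 1 to 3 counts in untreated and 10 to 13 in treated libraries, Mpo had 0 to 1 and 2 to 4, and neither was tested. The summed CPM of the 12 markers, most of it Cd14 and Cd68, ranged from 15.9 to 18.9 in untreated and from 31.8 to 34.2 in treated libraries.

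Levels were compared between genes per length of exon. In untreated cells S100a6 was highest at 404 ± 37.1 RPKM (SD, n = 4), followed by S100a11 at 138 ± 5.48 RPKM and S100a10 at 108 ± 8.45 RPKM. S100a1, S100a16, S100a13 and S100a4 followed at 31.7, 20.1, 12.7 and 5.58 RPKM. S100a8, S100a3 and S100a9 were below 0.1 RPKM and overlapped each other. With all exon bases counted, neighbours among the first 7 did not overlap over the 4 libraries. If all S100a4 reads came from its exon bases outside Gm42674, S100a4 would be at 11.6 ± 1.20 RPKM, close to S100a13.

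In treated cells S100a6 was at 345 ± 8.56 RPKM, S100a11 at 213 ± 12.3 RPKM and S100a10 at 124 ± 3.74 RPKM. The order was otherwise kept except that S100a13, at 20.6 RPKM, came before S100a16, at 18.1 RPKM. These positions depend on the length used. With the median transcript length in place of all exons, S100a10 ranked above S100a11 and S100a16 above S100a1 in both groups, and S100a13 remained below S100a16. The CPM of the 10 members summed to 821 ± 64.6 in untreated and 793 ± 17.0 in treated cells, and S100a6 made up 67.2% ± 0.903 of this sum in untreated and 59.5% ± 0.548 in treated cells.

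The annexins went both ways. Anxa5 and Anxa6 rose by 0.30 and 0.48 on the log2 scale, with edgeR FDRs of 9.19e-15 and 2.32e-40, and were named after their values were seen. Anxa11, named in the same way, fell by 0.22 with an edgeR FDR of 0.00299, and its groups overlapped. The main partners of S100a10 and S100a11 fell. Anxa2 (chr9:69453620-69491795, plus strand) was lower in treated cells, at 553 ± 23.2 CPM against 755 ± 19.3 CPM (log2 fold change -0.45, edgeR FDR 2.12e-25). Anxa1 (chr19:20373428-20390944, minus strand) was lower at 780 ± 19.6 CPM against 872 ± 57.4 CPM (log2 fold change -0.16, edgeR FDR 0.00175). A ratio of counts within a library does not depend on how libraries are scaled. There were 0.173 S100a10 reads for each Anxa2 read in untreated cells and 0.271 in treated cells.

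On the log2 scale, with 1 added to each count, the S100a10 to Anxa2 ratio was -2.53 ± 0.106 in untreated and -1.88 ± 0.0805 in treated libraries (SD, n = 4). The difference of 0.65 had p = 0.0286 in an exact two-sided permutation test, the smallest value that 4 against 4 libraries allow, and 0.0286 after Benjamini-Hochberg adjustment over the 3 ratios computed. The S100a11 to Anxa1 ratio rose by 0.78, from -3.63 ± 0.0537 to -2.84 ± 0.0545, with the same exact permutation p of 0.0286 before and after adjustment. In CPM, S100a11 was higher and Anxa1 lower in each treated library than in any untreated library. The p-value of their ratio therefore follows from those values and is not separate evidence. For both ratios all 4 treated libraries lay above all 4 untreated libraries. The ratio of S100a13 to its neighbour S100a1 was chosen after their values were seen. Its p-value is therefore not given, though it was among the 3 ratios in the adjustment. This ratio was -1.28 ± 0.147 in untreated and -0.17 ± 0.0769 in treated libraries, a difference of 1.11.

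**Figure D3:**
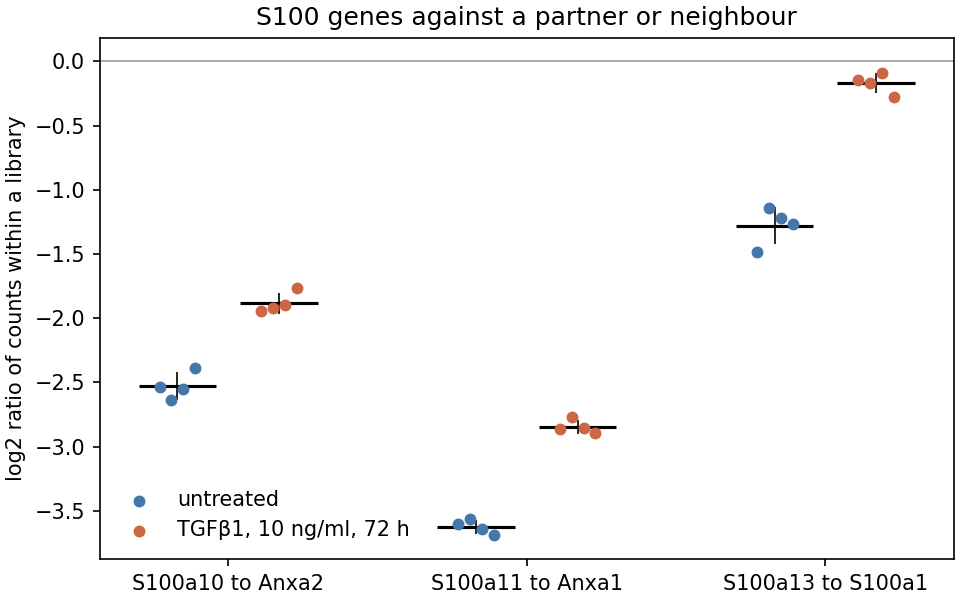
Log2 ratio of read counts within each library for S100a10 to Anxa2, S100a11 to Anxa1 and S100a13 to S100a1. Points are libraries, horizontal lines the means and vertical lines the SD (n = 4 per group). In each of the 3 pairs the 4 treated libraries lie above the 4 untreated libraries, by 0.65, 0.78 and 1.11 on average.

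Of 24 genes for partners and receptors of S100 proteins, 23 were found in the table under their symbol and 21 were tested. With TGFβ1, 11 were higher, 6 lower and 4 not called in the edgeR test. Of all genes tested, 37.6% were called higher and 38.0% lower. The median log2 fold change of the 21 was 0.30, where that of all genes tested was -0.01. Among the receptors, Ager, which encodes RAGE, rose from 0.955 ± 0.222 to 3.29 ± 0.327 CPM (log2 fold change 1.77, edgeR FDR 1.02e-22). Mcam, an adhesion molecule of endothelium that binds extracellular S100A8/A9, rose from 90.7 ± 4.32 to 549 ± 19.2 CPM, by 2.60 ± 0.0463 on the log2 scale. Tlr4 fell from 42.6 ± 2.96 to 25.0 ± 1.62 CPM (log2 fold change -0.77, edgeR FDR 2.00e-29). Ager, Mcam and Tlr4 did not overlap between groups, where 69.8% of all genes tested did not. Mcam was chosen for naming among genes with groups apart, so this was built into its choice. Of the same list, Alcam and Ly96 rose by 0.51 and 0.53 on the log2 scale. Bsg overlapped between groups and was not called (log2 fold change -0.03, edgeR FDR 0.697).

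Partners inside the cell also went both ways. Mdm2, the p53 ubiquitin ligase, whose protein S100 proteins can bind, rose from 306 ± 30.0 to 1429 ± 61.6 CPM (log2 fold change 2.22, edgeR FDR 1.79e-256). Ahnak, a giant scaffold protein held at the membrane by annexin A2 and S100A10, rose from 233 ± 5.55 to 475 ± 32.5 CPM (log2 fold change 1.02, edgeR FDR 1.58e-88). Cacybp, the partner of S100A6, fell from 106 ± 2.73 to 84.1 ± 2.76 CPM (log2 fold change -0.33, edgeR FDR 6.78e-13). Cacybp and S100a6 were thus lower together, whereas Anxa2 and S100a10 went in opposite directions.

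**Figure D4:**
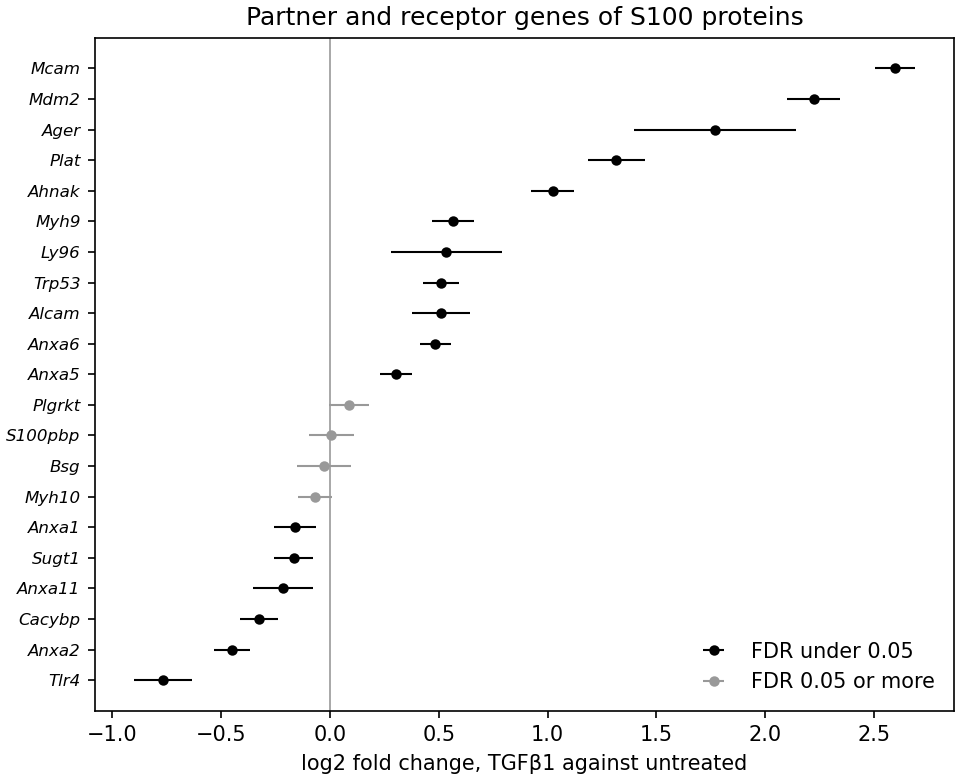
Log2 fold changes, TGFβ1 against untreated, with 95% intervals, of the 21 tested partner and receptor genes of S100 proteins. Black marks an edgeR FDR under 0.05 and grey a larger one. Mcam at 2.60 and Mdm2 at 2.22 are the highest and Tlr4 at -0.77 is the lowest.

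The rest of the S100 family was close to silent. Of 15 other S100 and fused S100 genes, such as Flg and Hrnr of the skin barrier, 8 had no count in any library, 11 had at most 3 counts in any library, and 1 was tested. S100a7a, the mouse psoriasin, had 13, 23, 18 and 5 counts in untreated and 17, 18, 24 and 20 in treated libraries, with a log2 fold change of 0.51 and an edgeR FDR of 0.0787. S100a14 had 2 to 7 counts in untreated and 5 to 16 in treated libraries, S100a2 had 1 to 3 and 1 to 7, and S100b had 0 to 1 and 0 to 3. Tchh, which encodes trichohyalin of the hair follicle, had 3, 4, 1 and 4 counts in untreated and 13, 13, 9 and 32 in treated libraries, and was not tested. Of 7 keratinocyte and other epithelial markers 3 were tested. Krt14, at 37.1 CPM in untreated and 38.8 CPM in treated cells, was not called (edgeR FDR 0.353). Trp63 had 4 to 9 counts in untreated and 1 to 4 in treated libraries, and was not tested. Krt8 had 2 to 12 counts in untreated and 17 to 35 in treated libraries, and Krt18 had 2 to 8 and 16 to 47. Both passed the filter on low counts only through the treated group, so a higher value there was built into their being tested. The summed CPM of the 7, most of it Krt14, ranged from 34.7 to 41.1 in untreated and from 38.2 to 45.3 in treated libraries.

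Among 46 other genes with EF-hands, 37 were tested, of which 17 were higher, 12 lower and 8 not called in the edgeR test. Their median log2 fold change was 0.05. Over all genes tested, 37.6% were called higher and 38.0% lower. Tnnc1, troponin C of slow and cardiac muscle, had the largest increase of those chosen for naming, 1.60 on the log2 scale. It went from 0.487 ± 0.0884 to 1.47 ± 0.366 CPM. With untreated counts of 8 to 14, Tnnc1 passed the filter on low counts only through the treated group. A higher value there was thus built into its being tested. Ehd4, an ATPase of endocytic membranes, and Nucb2, a secretory pathway calcium-binding protein, rose by 1.15 and 1.11. Calml4, a calmodulin-like myosin light chain, fell by 1.33 on the log2 scale and Ppp3r1, the regulatory subunit of calcineurin, by 0.44. Of the exon bases of Ppp3r1, 14.3% overlap Wdr92 on the same strand.

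Within 500 kb of the S100 block the annotation held 44 genes outside the family, of which 18 were tested. In the edgeR test 7 were higher, 5 lower and 6 not called, and their median log2 fold change was 0.07. The shares over all genes tested were 37.6% higher and 38.0% lower. Npr1, the receptor of atrial natriuretic peptide, rose by 1.88, Nup210l by 1.55 and Slc27a3, an acyl-CoA synthetase, by 0.73 on the log2 scale. Dennd4b fell by 0.90, Chtop, an mRNA export factor, by 0.68, and Ilf2, an RNA-binding protein, by 0.24. All 18 tested neighbours lay on the S100a1 side of the block. Of the exon bases of Npr1, 11.7% overlap the antisense gene Gm16048, and 4.13% of those of Ilf2 overlap Snapin on the opposite strand.

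**Figure D5:**
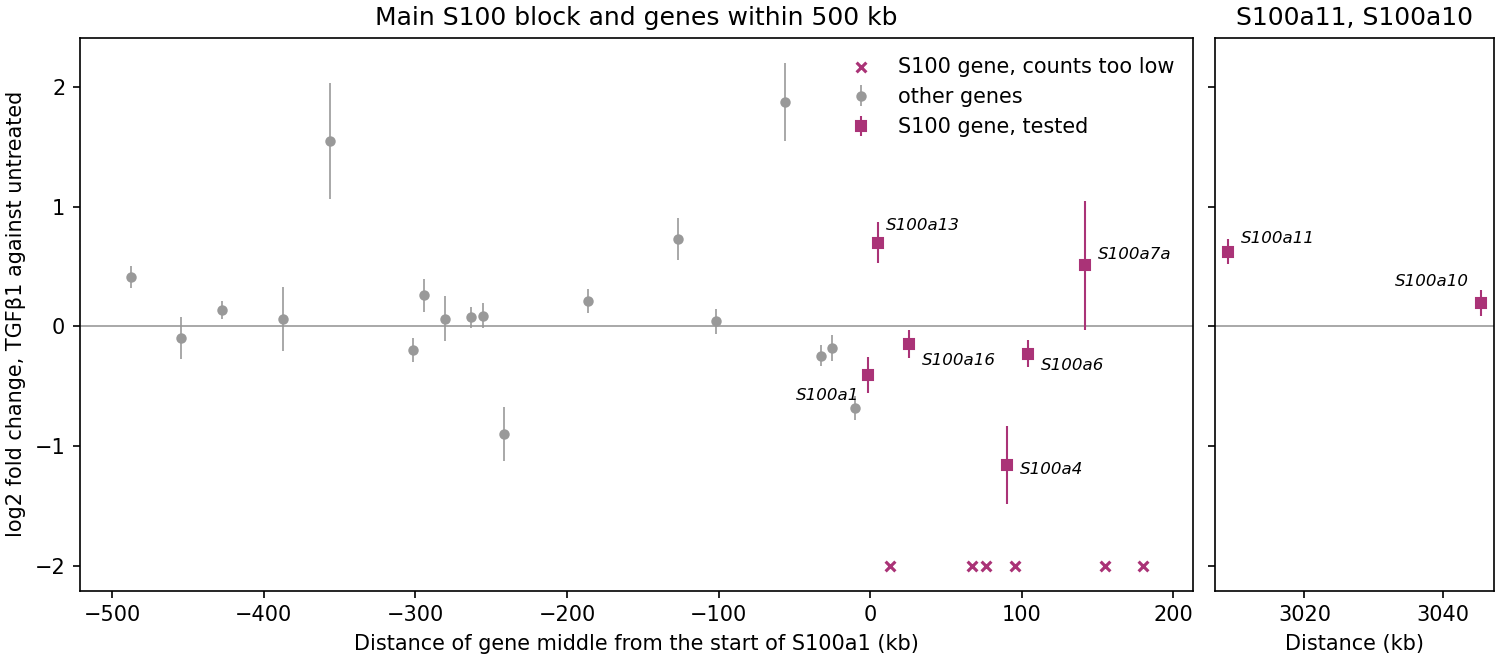
Log2 fold changes, TGFβ1 against untreated, with 95% intervals, against the distance of each gene's middle from the start of S100a1, in kb. Squares are tested S100 genes, grey circles other tested genes within 500 kb, and crosses, placed at the lower edge without a value, S100 genes with too few counts. The right panel has its own distance scale. S100a1 at -0.40 and S100a13 at 0.70 lie side by side.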

How the data were processed

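Stranded poly(A) libraries were sequenced as single 75-base reads. The authors deposited raw counts of reads per gene; the submitters' processing notes name GRCm38, bcl2fastq 2.20.0.422, STAR 2.7.3a and featureCounts 1.5.1. The annotation release, strand setting and treatment of multi-mapping reads are not given in the sources used here. The table was analysed in R 4.3.3 with edgeR 4.0.16 (filterByExpr, TMM, glmFit, glmLRT), with p-values adjusted by Benjamini-Hochberg across the 13818 genes that passed the filter. SEs came from the negative binomial fit at edgeR's dispersions, and 95% intervals assume a normal distribution. Exon lengths came from GENCODE M21, which matched 55144 of 55471 genes. Alternatives were the quasi-likelihood test, DESeq2 1.42.0, its size factors, total counts, other filters, a prior count of 2, a replicate block and leaving out each library. The pipeline was tested on simulated data.

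The members and all gene lists were chosen with earlier results of these data known. Named were all members, other S100 genes with 3 or more counts in a library, Ager, Tlr4, Anxa1, Anxa2, Ahnak, treatment targets and, per list, up to 3 genes in each direction with the largest change among called genes with groups apart. Some genes that this rule selected are not reported here. Protein sequences were not used here. Same-numbered libraries of the 2 groups correlated at -0.19 to -0.03 after removal of group means, so they were not treated as pairs. Counts of replicates differed by more than sampling noise (chi-square per degree of freedom 2.37 to 7.84).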

Additional observations from a re-analysis of the deposited data

Results flagged for a closer look

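In the treated group S100a4 was at 1.23 CPM in replicate 3, while the other libraries all lay at 1.51 CPM, a gap that exceeded Dixon's 95% critical value for 4 libraries. Such a gap arises by chance in about 1 of 20 groups, and 22 groups were examined. The value rests on 25 counts, and the untreated libraries lay between 2.78 and 3.54 CPM.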

How the results depend on the processing

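Of 112 log2 fold changes of members recomputed under alternatives, 109 kept direction and call, 0 were reversed, and 3, all of S100a16, lost the call when 1 library was left out. The alternatives called 3 to 4 members higher and 3 to 4 lower. The fourth higher member was S100a3, which entered without the filter on low counts and in 7 of the 8 fits that left out a library, where it passed the filter only through the treated group, so its call there was favoured by how it entered. With the replicate block 3 members were higher and 4 lower, and the block changed no call of a member. It called 16 EF-hand genes higher and 11 lower, and 5075 higher and 5077 lower genes in all. Scaling to total counts moved the median of all genes to -0.07, under 0.1, and the share of calls that were higher from 49.7% to 44.0%. No filter raised the genes tested to 27709. Leaving out 1 library in turn, the difference in log2 ratio ranged from 0.61 to 0.69 for S100a10 to Anxa2, from 0.76 to 0.80 for S100a11 to Anxa1 and from 1.04 to 1.15 for S100a13 to S100a1. With 3 against 4 libraries the exact permutation test cannot pass the threshold, so these values carry no call. Adding 0.5 in place of 1 to the counts gave 0.65, 0.78 and 1.11. The S100a13 to S100a1 ratio, the ranks by median transcript length and the examination of S100a3 counts were chosen after seeing the data. The S100a8 to S100a9 ratio was not run because of counts at 0. Depth limits S100a8, S100a9 and most other S100 genes, which lay near or under 3 counts, and S100a3 in untreated cells.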
